A study of Mus musculus with 3 samples.

Results

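The genes described here are those of the Wnt pathway: the Wnt ligands, the Frizzled receptors, the secreted Frizzled-related (Sfrp) and Dickkopf (Dkk) proteins, and 12 named coreceptors, receptor ligases, destruction complex members and transcription factors. They were chosen by a rule on gene symbols, which itself uses no measured value but was written with earlier results of these data known. The deposited table held 40 of them among 19471 genes. The libraries were made from astrocytes of the cortex of wild-type (WT) mouse pups at postnatal day 1, grown for 7 days in culture before RNA was taken. There is 1 group of 3 biological replicates, from pups 5, 6 and 8, sequenced as stranded poly(A) libraries. Summed over the genes in the deposited table, the libraries held 14380993, 25128038 and 9858626 reads. The number of reads sequenced is not known from these sums. The labels give the pups as wild type and name no treatment, transgene or mutation, and the series concerns the histone variant H2BE. The titles give the age as P1, whereas the names of the libraries carry P0 and the word control. With no second group, genes were compared with one another within the libraries and the libraries with one another. Since each library stands for 1 pup, what the animal, the culture and the preparation each add to the spread between replicates cannot be told apart.

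Wnt proteins are lipid-modified secreted ligands. In the branch that runs through beta-catenin they bring a Frizzled receptor together with the coreceptor Lrp5 or Lrp6, which disables a cytoplasmic complex built on Axin and Apc that otherwise marks beta-catenin for destruction, and beta-catenin then enters the nucleus and acts with TCF/LEF factors on target genes. Other branches use Frizzled receptors without beta-catenin and steer cell shape and planar polarity. In the brain, Wnt signals from neural progenitors and astroglia are known for patterning the cortex, for the growth and barrier of blood vessels and for synapse formation.

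Values are the deposited normalized read counts, that is reads divided by a size factor for each library. They are not divided by length, so wherever levels of different genes are compared they were also expressed per kilobase (kb) of annotated exon. Errors are SDs over 3 libraries. Of the markers of the labelled cell type, all 7 astrocyte genes had a mean above 100, with Gfap at 52283 ± 6679 and Slc1a3 at 22003 ± 1902. Markers of other cells were present too. The summed count of 6 microglial markers was 11551 to 17910.2 in a library, of 5 ependymal markers 10424 to 14113, of 6 genes of the oligodendrocyte lineage 6523 to 9059.9, of 6 fibroblast and meningeal genes 5841 to 6210.0, of 5 mural genes 1301 to 1652 and of 4 choroid plexus genes 421 to 933. The 6 neuronal markers summed to 238 to 447 and the 4 endothelial markers in the table to 88.5 to 121. Genes of the same list differed widely. Rbfox3, Snap25, Slc17a7, Pecam1, Tek, Kcnj8, Abcc9 and Lum had means under 10. In these lists Pdgfrb had a mean of 900, Notch3 581, Syt1 167, Tubb3 157, Flt1 90.6 and Dcn 14.4. The largest means in the ependymal, oligodendrocyte lineage and fibroblast lists were Foxj1 at 9966, Olig1 at 5896 and Islr at 2691. In such bulk RNA, few cells with much of a transcript and many cells with little of it cannot be told apart, and which cells the Wnt pathway transcripts came from was not tested.

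Most of the Wnt pathway genes in the deposited table were expressed. Of the 40 genes, 34 averaged at least 10, or 85%, against 71.6% of all genes in the table. A mean of at least 100 was reached by 25 of the 40 genes, or 62.5%, against 54.3% of all genes. Which genes the table leaves out depends on a filter that is not given. These shares therefore hold only for genes with a row in it. The median of their means was 389.8 against 146 for all genes. Every role had at least 1 gene with a mean of at least 100, and in several families some members were abundant while a close relative lay near the floor, which is 3 reads or a normalized count of 2.44, 1.42 and 3.59 in replicates 1, 2 and 3. The 6 genes under 10 were Wnt3, Wnt6, Wnt11, Fzd9, Rnf43 and Lef1. Together the 40 genes took 0.318%, 0.327% and 0.31% of the reads in the table.

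**Figure D1:**
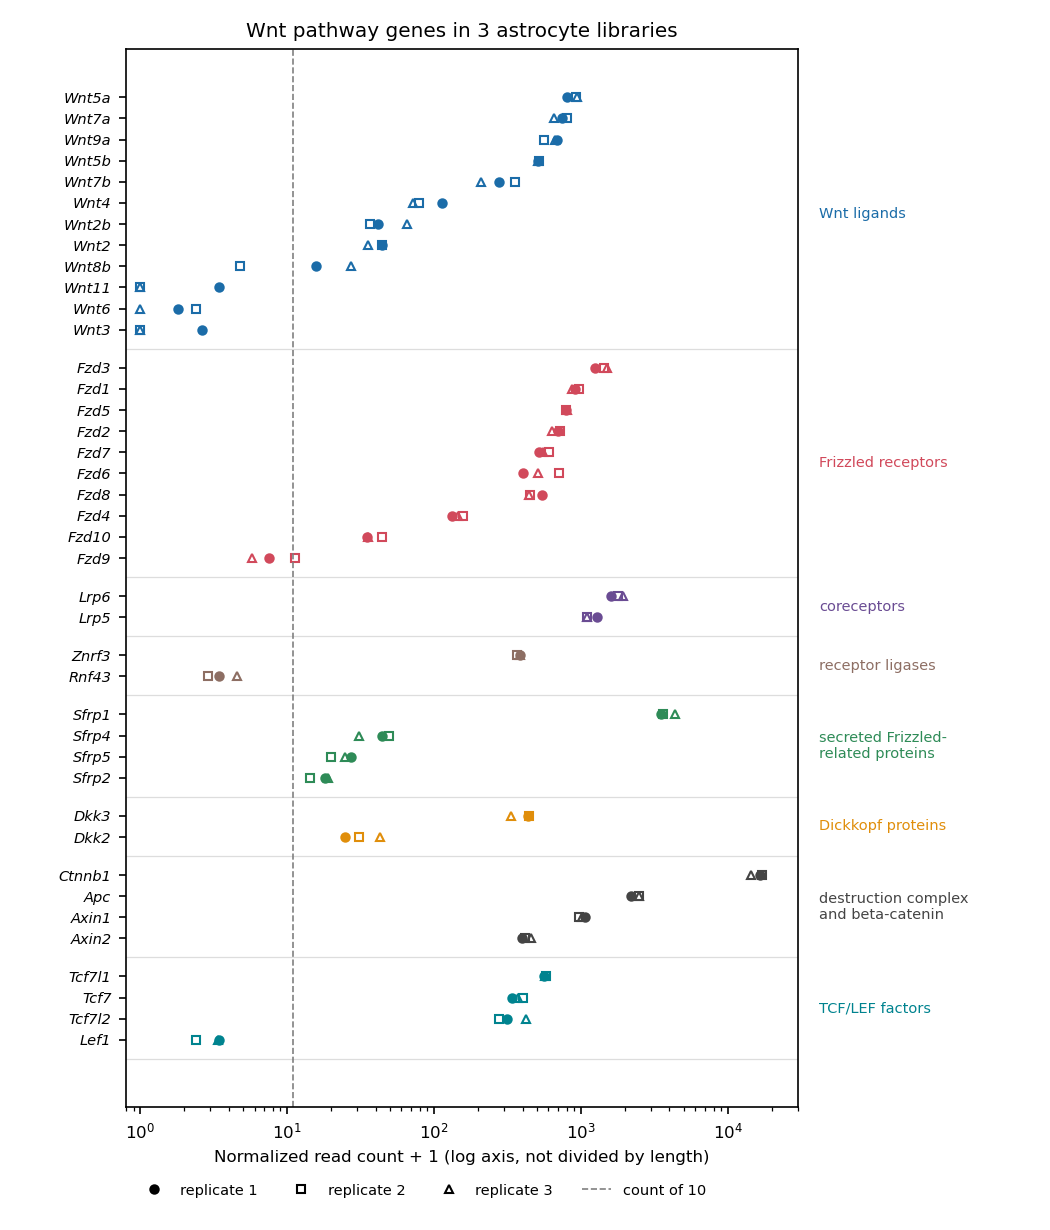
Normalized read count plus 1 (log axis, not divided by length) of each of the 40 Wnt pathway genes in replicates 1, 2 and 3, grouped by role. 34 genes have an average of at least 10 (dashed line), and 6 genes, among them Lef1 and Rnf43, have a mean under it.

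Sequences just before the annotated start are shown for 3 genes on which the results below turn: Axin2, a classic feedback target of beta-catenin, and the TCF/LEF genes Tcf7l2 and Lef1, of which the first was expressed and the other was near the floor. Each is the 250 bases before the RefSeq start on GRCm38.p6, from 5′ to 3′ on the strand of the gene, with every CG dinucleotide in capitals. Axin2 is at chr11:108920099-108920348 on the plus strand, Tcf7l2 at chr19:55741560-55741809 on the plus strand and Lef1 at chr3:131110047-131110296 on the plus strand.
Axin2: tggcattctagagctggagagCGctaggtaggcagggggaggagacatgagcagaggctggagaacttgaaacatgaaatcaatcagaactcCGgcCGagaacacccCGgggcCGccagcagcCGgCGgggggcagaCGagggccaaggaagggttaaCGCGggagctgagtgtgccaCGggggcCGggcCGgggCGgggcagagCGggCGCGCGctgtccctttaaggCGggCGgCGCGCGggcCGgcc
Tcf7l2: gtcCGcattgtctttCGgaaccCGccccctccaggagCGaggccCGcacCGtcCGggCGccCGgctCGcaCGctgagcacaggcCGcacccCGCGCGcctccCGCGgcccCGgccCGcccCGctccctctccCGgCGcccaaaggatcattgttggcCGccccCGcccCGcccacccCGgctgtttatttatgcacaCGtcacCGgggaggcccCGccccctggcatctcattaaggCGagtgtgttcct
Lef1: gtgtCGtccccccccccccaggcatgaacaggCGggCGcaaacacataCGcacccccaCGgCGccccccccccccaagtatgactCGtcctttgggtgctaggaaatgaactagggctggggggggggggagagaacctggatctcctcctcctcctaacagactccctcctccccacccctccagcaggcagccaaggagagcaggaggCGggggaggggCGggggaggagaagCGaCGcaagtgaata
The Axin2 stretch holds 24 CG dinucleotides, that of Tcf7l2 30 and that of Lef1 11. Lef1 had 4 RefSeq starts. The bases after the one used were not found in a GENCODE transcript of Lef1, unlike those of Axin2 and Tcf7l2. The Lef1 window ends at 131110296, and the GENCODE gene starts at 131110471. RefSeq promoters matched 26 of the 40 genes, and where a gene had several starts the most upstream was used. These 26 held a median of 28.5 CG dinucleotides, with a range of 5 (Wnt8b) to 48 (Wnt9a). The median was 29.5 in the 20 averaging at least 10 and 25 in the 6 with a lower mean. Over all table genes with a RefSeq promoter the medians were 16 at an average of at least 10 and 6 below it, and 91.7% of all 27025 promoters held at least 1 CG dinucleotide. The core letters bound by TCF/LEF factors, searched as CTTTGA and CTTTGT on both strands, were in 6 of the 26 windows (23.1%), in 27.8% of all promoters and in 21.1% of those of table genes averaging at least 10. The bases after the start were found in a GENCODE transcript of the gene for 23 of the 26, all but Fzd1, Fzd7 and Lef1. Fzd1 and Fzd7 are among the 6 with a match. None of the 3 sequences shown holds either of them.

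Among the ligands, 9 of the 12 Wnt genes in the deposited table averaged at least 10 and 5 above 100. Wnt5a, the ligand best known for signals that do not use beta-catenin, had normalized counts of 802, 921 and 939.9 in replicates 1, 2 and 3 (888 ± 74.8). Wnt7a, a ligand that acts on brain vessels and on synapses, stood at 739, 805 and 656 (733 ± 74.5). Wnt9a stood at 683, 556 and 660.1 (633 ± 67.9). The libraries lay close together for these ligands, with the highest at most 1.23 times the lowest. Wnt5b, the paralog of Wnt5a, was the steadiest at 510.0, 516 and 507 (511 ± 4.35). Wnt7b, the paralog of Wnt7a, was lower and more variable at 276, 352 and 207 (278 ± 72.5), with replicate 2 high and replicate 3 low.

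Wnt5a led the ligands by reads but not by length-corrected level, because its annotated exons span 7823 nucleotides. Per kb the order was Wnt7a at 231 ± 23.5, Wnt5b at 192 ± 1.64, Wnt9a at 190.1 ± 20.4 and Wnt5a at 113 ± 9.57. In mean and SD, Wnt9a overlapped Wnt7a and Wnt5b, but its highest library (205 per kb) lay below every library of Wnt7a. The lowest library of Wnt7a (207 per kb) lay above the highest of Wnt5b (194 per kb), and the highest of Wnt5a (120.1 per kb) lay below every library of the other 3. Wnt7a gave 27.5% ± 2.17 of the summed per-kb level of the 12 Wnt genes, Wnt5b 22.95% ± 0.46, Wnt9a 22.7% ± 2.7, Wnt5a 13.5% ± 1.37 and Wnt7b 6.75% ± 1.62. With the longest transcript of GENCODE's basic set as the length, Wnt5b (215 per kb) and Wnt7a (231 per kb) remained ahead of Wnt9a (191 per kb) and Wnt5a (127 per kb).

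The other Wnt ligands were low. Wnt4 had normalized counts of 111, 78.3 and 70.6 from 362 reads in all, Wnt2 43.1, 43.4 and 34.7 from 174 reads, and Wnt2b 40.7, 35.4 and 64.6 from 179 reads. Wnt8b, at 14.6, 3.77 and 26.3, rested on 18, 8 and 22 reads. Wnt3, Wnt6 and Wnt11 had 2, 4 and 3 reads in all 3 libraries together, and each had 0 reads in at least 1 library, where the count allows up to 3 reads. The rule also covers Wnt1, Wnt3a, Wnt8a, Wnt9b, Wnt10a, Wnt10b, Wnt16, Dkk1 and Dkk4. The deposited table had no row under these symbols, so their levels are not known.

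Frizzled genes, which encode the receptors with the Wnt-binding domain, were broadly expressed: 9 of 10 averaged at least 10 and 8 above 100. Fzd3, a receptor known for axon guidance and planar polarity, had the most reads, with normalized counts of 1251, 1444 and 1506 (1400.1 ± 133). Fzd1 stood at 909, 961 and 869 (913 ± 46.2), Fzd5 at 786, 788 and 804 (793 ± 9.67), and Fzd2 at 699, 714 and 639 (684 ± 39.9). Fzd7, the close relative of Fzd1 and Fzd2, stood at 516, 609 and 546 (557 ± 47.2). These 5 receptors varied little, with the highest library at most 1.20 times the lowest. Fzd6, at 400.2, 702 and 509 (537 ± 153), ranged over 1.76-fold, with replicate 2 high. Fzd8 stood at 542, 447 and 441 (477 ± 56.5), with replicate 1 high, and Fzd4, the receptor for the non-Wnt ligand norrin as well, at 132, 158 and 145 (145 ± 12.9). Fzd10 (37.4 ± 5.19) rested on 163 reads and Fzd9 (7.22 ± 2.87) on 34.

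Length changed the order of the receptors more than that of the ligands. The exons of Fzd3 span 12804 nucleotides and those of Fzd1 4197 in 1 exon block. Per kb, Fzd1 at 218 ± 11 and Fzd2 at 187 ± 10.9 led, their ranges of mean and SD not overlapping those of the next gene, Fzd7 at 123 ± 10.4. Fzd7, Fzd5 (115 ± 1.4), Fzd6 (112 ± 31.8) and Fzd3 (109 ± 10.4) lay within each other's spread. Fzd8 (79.8 ± 9.45), whose highest library (90.7) exceeded the lowest of Fzd6 (83.1), Fzd4 (21.5 ± 1.92) and Fzd10 (11.5 ± 1.6) followed. Fzd1 gave 22.2% ± 0.697 of the summed per-kb level of the 10 receptors and Fzd2 19.1% ± 1.06, against 11.2% ± 1.05 for Fzd3. The summed level per kb was 979 ± 59.5 for the Frizzled genes and 839 ± 21.8 for the Wnt genes.

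**Figure D2:**
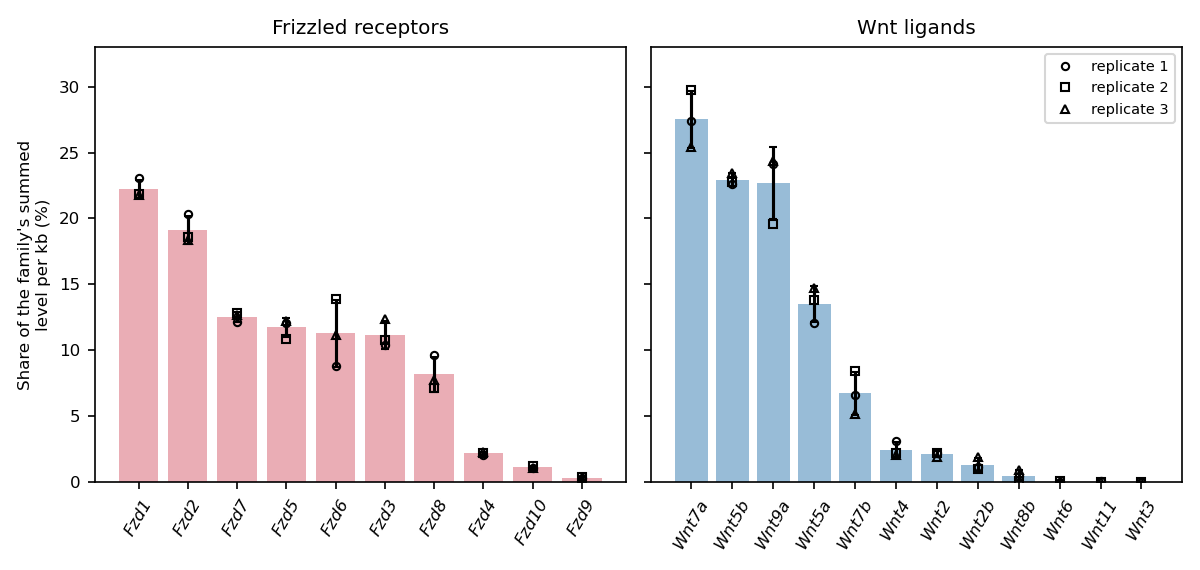
Share (%) of the summed level per kb of annotated exon that each gene gave within the Frizzled receptors (left) and the Wnt ligands (right); bars are means, error bars SDs over 3 libraries and symbols the libraries. Fzd1 and Fzd2 lead the receptors with 22.2% and 19.1%, and Wnt7a leads the ligands with 27.5%.

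Both coreceptor genes were expressed. Lrp6 stood at 1597, 1786 and 1919 (1768 ± 162) and Lrp5 at 1275, 1092 and 1093 (1153 ± 106). The libraries ran in different directions, with replicate 1 the lowest for Lrp6 and the highest for Lrp5. Per kb of all annotated exons the genes lay at 129 ± 11.8 and 118 ± 10.8, a log2 difference of -0.13 ± 0.13 (SE) for Lrp5 against Lrp6 (adjusted p = 0.351, limma). The difference was 0.24 (adjusted p = 0.0742, limma) with the longest basic transcript as length and -0.62 (adjusted p = 1.31e-05, limma) with no division by length, so neither its direction nor its call was the same under all lengths.

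The receptor ligases Znrf3 and Rnf43, which remove Frizzled proteins from the cell surface and are themselves induced by Wnt signals, stood apart. Znrf3 had 381, 364 and 384 (376 ± 10.6), nearly the same in every library. Rnf43 had 2.44, 1.89 and 3.59, from 3, 4 and 3 reads. Over all libraries Znrf3 had 1561 reads and Rnf43 10, a ratio per kb of 129.7 (95% exact binomial interval 70.3 to 271, for counting error only). The mean log2 difference with a pseudocount of 1 was -6.46 and depends on that pseudocount. Rnf43 was below the mean of 10 that the limma test required.

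Secreted inhibitors were dominated by Sfrp1, whose product binds Wnt proteins outside the cell. Sfrp1 lies on chromosome 8 from 23411502 to 23449632 (mm10, plus strand) and had normalized counts of 3519, 3627 and 4347 (3831 ± 450.2), the second highest mean of the 40 genes, with replicate 3 above the others. Its relatives had few reads, with Sfrp4 at 43.1, 48.1 and 29.9, Sfrp5 at 26.0, 18.9 and 23.9, and Sfrp2 at 17.1, 13.2 and 17.9. Sfrp1 gave 96.7% ± 0.537 of the summed per-kb level of the 4 genes. Its level per kb, 876 ± 103, stood at percentile 95.9 among genes averaging at least 10. The 12 Wnt genes together had 839 ± 21.8. By library Sfrp1 stood at 804.8, 829.5 and 994.2 and the Wnt sum at 850.1, 852.7 and 813.8. Sfrp1 was thus the higher only in replicate 3. With the longest basic transcript as length the Wnt sum was 903.7, above Sfrp1 at 876. Dkk3, a divergent Dickkopf protein whose part in Wnt signalling is debated, stood at 434, 444 and 332 (403 ± 61.6), with replicate 3 low. Dkk2, which binds Lrp5 and Lrp6, stood at 23.6, 29.7 and 41.9 from 127 reads.

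Beta-catenin itself was the most abundant of the genes. Ctnnb1 (chromosome 9, 120929216 to 120960507 on the plus strand in mm10) had normalized counts of 16505, 17035 and 14345 (15961 ± 1425), which ranked 42 among all genes, with replicate 3 the lowest. Beta-catenin is also a part of cell-cell junctions. Ulk4, a gene on the other strand at 785 ± 102, overlaps 14.6% of the exon length of Ctnnb1, and whether the reads were counted by strand is not given in the sources used here. Apc, a scaffold of the destruction complex, stood at 2191, 2495 and 2487 (2391 ± 173), with replicate 1 low.

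The Axin genes encode the limiting scaffold of the destruction complex. Axin1, the constitutive member, stood at 1057, 973 and 1008 (1013 ± 42.3). Axin2, which beta-catenin induces as negative feedback, stood at 395, 413 and 458 (422 ± 32.3). The lowest library of Axin1 lay above the highest of Axin2. Axin2 was lower than Axin1 per kb by a log2 difference of -1.79 ± 0.10 (SE), or 3.45-fold (adjusted p = 1.11e-08, limma), in 3 of 3 libraries. Of all genes tested, 80% were lower than Axin1 in the same way. The longest basic transcript as length gave a 2.71-fold difference. With each gene's own variance in place of limma's, the adjusted p was 0.00487 (t-test).

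Of the nuclear factors that carry beta-catenin to DNA, 3 of 4 were expressed. Tcf7l1, often a repressor in progenitors, had 563, 580.2 and 567 (570.0 ± 9.1), and Tcf7 339, 402 and 374 (372 ± 31.4). Tcf7l2 had 314, 274 and 425 (338 ± 77.9), with replicate 3 high. Lef1, the gene whose upstream sequence is shown above, had 2.44, 1.42 and 2.39 from 3, 3 and 2 reads.

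Per kb of all annotated exons, Tcf7l1 (145 ± 2.32) and Tcf7 (142 ± 11.98) were higher than Tcf7l2 (38.5 ± 8.88), with log2 differences of 1.94 ± 0.25 (SE, adjusted p = 6.29e-14, limma) and 1.90 ± 0.25 (SE, adjusted p = 1.96e-13, limma). By the same test 57.8% of all genes were higher than Tcf7l2. Every difference shares the same values of Tcf7l2. With each gene's own variance in place of limma's, the adjusted p were 0.0251 for Tcf7l1 and 0.0278 for Tcf7 (t-test). The size of these differences follows the length taken for Tcf7l2, 8775 nucleotides over all exons but 3715 in its longest basic transcript. With the latter they were 1.07 (adjusted p = 4.25e-05, limma) and 0.75 (adjusted p = 0.00449, limma), and with no division by length the difference for Tcf7 was 0.16 (adjusted p = 0.556, limma). Tcf7l2 had 1322 reads against 8 for Lef1, a ratio per kb of 165.5 (95% exact binomial interval 83.7 to 384, for counting error only).

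Lrp6 served as a common yardstick for the 33 other genes averaging at least 10. Per kb, 8 were higher and 15 lower than Lrp6 at an adjusted p under 0.05 (limma), and 10 were not called. Over all genes tested 29.2% were higher and 61.2% lower. The genes higher than Lrp6 were Ctnnb1 (log2 difference 4.57 ± 0.14, SE), Sfrp1 (2.76 ± 0.11), Axin1 (1.04 ± 0.12), Wnt7a (0.84 ± 0.12), Fzd1 (0.75 ± 0.11), Wnt5b (0.58 ± 0.11), Wnt9a (0.56 ± 0.12) and Fzd2 (0.53 ± 0.12). The first 4 of these were also called higher with the longest basic transcript as length, where Wnt7a was 0.29 above Lrp6. Fzd1, Wnt5b, Wnt9a and Fzd2 were not, at 0.21, 0.20, 0.01 and -0.01. All 15 genes lower than Lrp6 were also called lower with that length, among them Axin2 (-0.75 ± 0.115), Wnt7b (-1.21 ± 0.16), Znrf3 (-1.43 ± 0.13), Tcf7l2 (-1.77 ± 0.14) and Fzd4 (-2.58 ± 0.14). With each gene's own variance in place of limma's, the calls of Fzd2, Wnt9a, Wnt7b and Fzd8 ended, at adjusted p of 0.0546, 0.0656, 0.0546 and 0.0659. Apc was then called higher than Lrp6 (adjusted p = 0.0343), and Wnt5a (0.0203) and Fzd3 (0.00969) lower, which gave 7 higher and 15 lower. Without replicate 2, Fzd6 was called lower than Lrp6. Much of each error is the spread shared among genes in limma, and every difference shares the same 3 values of Lrp6.

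**Figure D3:**
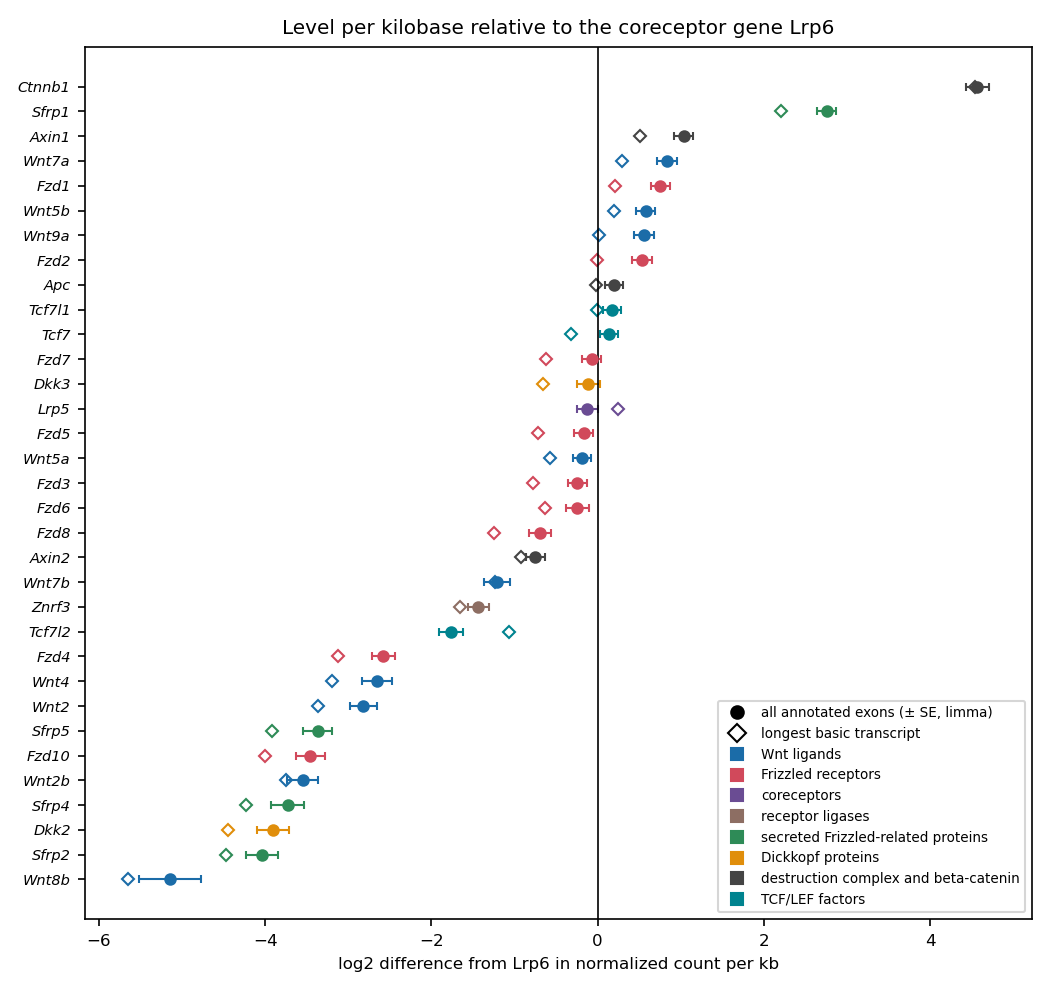
Log2 difference from Lrp6 in normalized count per kb for 33 genes; filled circles use all annotated exons (mean ± SE, limma) and open diamonds the longest basic transcript, coloured by role. Ctnnb1 and Sfrp1 lie furthest above Lrp6, at 4.57 and 2.76, and Wnt8b furthest below.

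The share of pathway genes that varied between libraries was close to that of all genes, and the difference between these shares was not tested. The reads of 19 of 34 genes tested, or 55.9%, were spread over the libraries more unevenly than sampling allows (chi-square, adjusted p under 0.05), against 55.4% of all genes. The median SD of log2 values was 0.14, against 0.16 over all genes tested. Of the 19 genes, 5 were highest in replicate 1, 7 in replicate 2 and 7 in replicate 3. Without replicate 1 the number was 11, or 32.4% against 35.8% of all genes at that setting. Steady genes included Wnt5b, Fzd5, Tcf7l1 and Znrf3, each with an SD of at most 0.041 (Znrf3, 0.0407). With 1 replicate left out, calls ended for Wnt5a, Fzd3, Fzd8, Lrp5, Apc and Wnt4 (without replicate 1), for Wnt9a and Wnt8b (without replicate 2), for Wnt7a, Wnt2b, Sfrp1, Dkk3, Ctnnb1 and Tcf7l2 (without replicate 3), and for Fzd7 and Axin1 without either replicate 1 or 2.

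Both a call and an SD above 0.3 were reached by 6 of 34 genes, or 17.6%, against 12.6% of all genes, and 4 of the 6 were Wnt ligands. Large SDs are common at low counts, with a median of 0.37 over all genes at means of 10 to 30. Wnt4 (0.34) and Wnt2b (0.45) lay below 0.49, the 90th percentile of all genes at means of 30 to 100. Fzd6, on chromosome 15 from 39006034 to 39038188 (mm10, plus strand), had an SD of 0.41 (adjusted p = 1.79e-26, chi-square). Its partner on the other strand, Gm26704, overlaps 3.155% of its exons and had a mean of 6.91 ± 4.38. Wnt7b had an SD of 0.38 (adjusted p = 2.38e-09, chi-square). Both genes were highest in replicate 2 and were called with any 1 replicate left out.

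The other 4 calls each ended when 1 library was left out. Tcf7l2 had an SD of 0.32 (adjusted p = 2.31e-09, chi-square), and without replicate 3 the adjusted p was 0.06. Wnt8b had an SD of 1.29, Wnt2b of 0.45 and Wnt4 of 0.34, with adjusted p of 3.59e-06, 0.00534 and 0.00282 (chi-square). The call of Wnt8b ended without replicate 2 (0.131), that of Wnt2b without replicate 3 (0.552) and that of Wnt4 without replicate 1 (0.6555). Without replicate 3, Wnt8b fell under the mean of 10 that the test required.

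Marker sums of other cell types also differed between libraries. The choroid plexus sum was 492, 933 and 421 in replicates 1, 2 and 3, highest in replicate 2 like Fzd6 and Wnt7b. That peak was Ttr (31.7, 557 and 13.2), whereas Folr1 was lowest in replicate 2 (425, 334 and 386), Kcnj13 stood at 26.8, 24.5 and 9.57 and Clic6 at 8.95, 17.9 and 11.96. The oligodendrocyte lineage sum (7965, 9060 and 6523) and the astrocyte sum (96207, 103278 and 83765) were also highest in replicate 2. So were the mural sum (1582, 1652 and 1301) and the endothelial sum (119.6, 120.8 and 88.5). Like Wnt7b, these sums were lowest in replicate 3. Single genes departed from this, among them Aldh1l1, Mbp and Pdgfrb, which were highest in replicate 1. The neuronal sum was 447, 238 and 393, and its low value in replicate 2 was that of Syt1 (222, 35.9 and 244). Tubb3 was lowest in replicate 3 (189.5, 162 and 118), as was Gad1 (26.8, 27.4 and 19.1), so the neuronal genes did not move together. The ependymal sum was 14113, 10424 and 12042, with all 5 genes lowest in replicate 2 like Wnt8b, Wnt2b and Tcf7l2. Wnt8b, Wnt2b and Tcf7l2 were highest in replicate 3, and the ependymal sum was not. The microglial sum was 17910.2, 13936 and 11551, highest in replicate 1 like Wnt4. The fibroblast and meningeal sum (6210, 6039 and 5841) and the ependymal and neuronal sums were highest in replicate 1 as well. The part of these cells in the spread of the Wnt pathway genes was not tested.

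**Figure D4:**
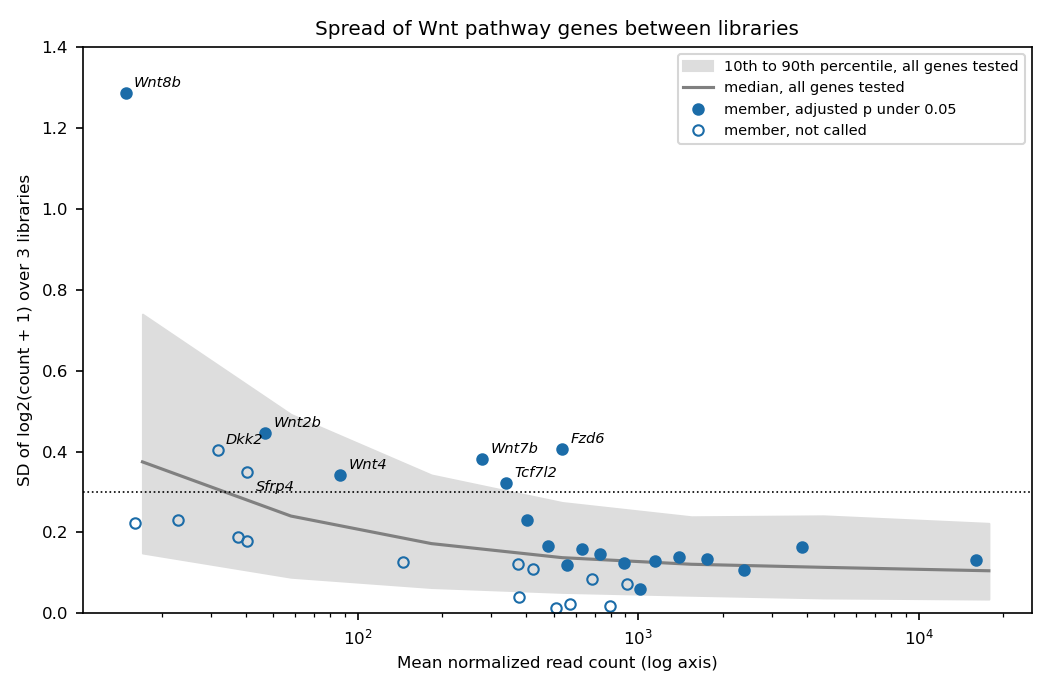
SD of log2(count + 1) over the 3 libraries against the mean normalized count (log axis) for 34 Wnt pathway genes, filled where reads differed between libraries at an adjusted p under 0.05; the line and band are the median and the 10th to 90th percentile of all genes tested, in bins of the mean. Wnt8b, Wnt7b, Tcf7l2 and Fzd6 lie above the band, and the dotted line marks an SD of 0.3.

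Other components of the pathway, from a list of 59 genes outside the 40, were also mostly expressed. Their values are normalized counts, not per kb, and give no order of level between genes. Of the 56 in the table, 47 averaged at least 10 (83.9%), against 71.6% of all genes. A mean of at least 100 was reached by 39 of the 56, and by 54.3% of all genes. The machinery that makes and exports Wnt proteins was present, with the carrier gene Wls at 3362 ± 432 and the acyltransferase gene Porcn at 236 ± 40.4, while Notum, an extracellular enzyme that removes the lipid, stood at 15.7 ± 5.5. All 14 genes of Dishevelled and the destruction complex had a mean of at least 100. The most reads fell to the casein kinase genes Csnk1a1 at 5768 ± 624 and Csnk1d at 2678 ± 163 and the tankyrase gene Tnks2 at 2306 ± 241.

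The genes in the table for R-spondins, which protect Frizzled receptors from Znrf3 and Rnf43, averaged under 10, while both of their receptors in the table averaged above 10. Rspo4, Lgr5 and the inhibitor gene Sost had no row, so their levels are not known. Rspo1, Rspo2 and Rspo3 had means of 7.4 ± 1.88, 7.75 ± 3.35 and 6.16 ± 4.12, against 672 ± 68.1 for Lgr4 and 21.0 ± 6.86 for Lgr6. Among receptors outside the Frizzled family, Ryk stood at 1538 ± 200.5, Ptk7 at 1236 ± 98.0 and Ror1 at 237 ± 32.0, whereas Ror2 was at 16.9 ± 3.09. Of 7 further extracellular inhibitors, 4 averaged at least 10, led by the Dickkopf receptor gene Kremen1 at 930.4 ± 137, Tpbg at 497 ± 48.4 and Sostdc1 at 145 ± 14.5. Wif1, Frzb and Kremen2 were at 2.47 ± 1.29, 3.42 ± 0.914 and 2.34 ± 2.14.

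Nuclear partners and target genes were uneven. Of 9 partners 8 had a mean of at least 100, with the corepressor gene Tle3 at 3913 ± 121, Ctnnbip1, an inhibitor of beta-catenin, at 1073 ± 107 and the coactivator gene Bcl9l at 764 ± 42.1, and Tle2 was at 5.54 ± 0.688. Among 6 target genes Ccnd1 (6615 ± 594), Tnfrsf19 (605 ± 38.0) and Myc (391 ± 45.3), which also answer to many other signals, were above 100. The feedback targets Nkd1, Nkd2 and Sp5 had means of 67.7 ± 10.5, 15.1 ± 4.9 and 3.61 ± 1.26.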

How the data were processed

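Poly(A) RNA sequencing values of 3 libraries were used. The authors deposited a signal per gene, normalized read counts for 19471 genes, made with DESeq2 on mm10 per the submitters' processing notes. For the aligner, the counting tool with its strand setting and the gene filter, names were not given in the sources used here. Every value was a whole multiple of what 1 read is worth (100% within 0.05 reads), so whole reads were recovered.

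The 40 genes and all lists were chosen with earlier results of these data known. Members with a mean of at least 100 are given by library, lower ones by mean or reads, and list genes by the 3 highest of a role and those under 10; Ror2, Nkd1, Nkd2, Lgr6, Vangl1, Prickle1, Prickle2 and Celsr3 were named after their values were seen.

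Exon lengths came from GENCODE vM21 (mm10), which matched 99.5% of genes. Differences between genes were tested with limma (intercept only, trended prior) on log2(value + 1) per kb within libraries, over 13901 genes averaging at least 10. Reads were tested between libraries by chi-square against each library's total over the deposited table. This covered 13941 genes averaging at least 10 with 30 or more reads in all. P-values were adjusted by Benjamini-Hochberg over all genes tested. On those reads the count test called 7726 genes. Alternatives were other lengths, pseudocounts, filters, scalings and variances, and leaving out each replicate; the longest basic transcript was added after seeing the data. Depth limits genes under 10 to a few reads, and intervals cover counting error only. Tests were run with limma 3.58.1, with edgeR 4.0.16 for TMM sizes, under R 4.3.3, the rest in Python 3.11.15 with SciPy 1.17.1, pandas 2.3.3, numpy 2.4.6 and, for figures, matplotlib 3.10.9.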

Additional observations from a re-analysis of the deposited data

How the results depend on the processing

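No pairing of samples between groups was possible because there is only 1 group. Differences between genes were taken within each library. The number of genes averaging at least 10 was 34 (33 to 34 with 1 replicate left out), 25 at a mean of 100 and 37 at a mean of 1. The number whose reads differed between libraries was 19, and 11 to 15 with 1 replicate left out; with fewer samples and reads the test has less to call on. It was 17 to 20 under the other settings. The count higher than Lrp6 was 8, 3 with no division by length and 4 with the longest basic transcript, and the count lower was 15, 30 with no division by length and 22 with the longest basic transcript. Lrp6 has 13672 nucleotides of exon, longer than the other genes except Apc, so leaving out length lowers them by construction. With 1 replicate left out these counts were 8 and 15 to 16.

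With no division by length the differences from Lrp6 changed sign for Wnt7a (-1.27), Wnt9a (-1.48), Wnt5b (-1.78), Fzd1 (-0.95), Fzd2 (-1.37), Axin1 (-0.80), Tcf7l1 (-1.63) and Tcf7 (-2.25), and with the longest basic transcript for Fzd2 (-0.0117), Tcf7 (-0.32), Lrp5 (0.2449), Apc (-0.0144) and Tcf7l1 (-0.0044). With 1 replicate left out, Fzd7 ranged from -0.1257 to 0.0042 and Dkk3 from -0.2408 to 0.0826, both above 0 only without replicate 3 and not called there. Of 330 differences from Lrp6 over single genes and settings, 289 kept direction and call, and of 228 calls between libraries 202 did. The difference of Tcf7 from Tcf7l2 was 0.16 with no call when length was left out. That of Lef1 from Tcf7l2, -6.78, was -7.29 with a pseudocount of 0.1, -5.58 with 5 and -4.635 after rescaling to CPM. That of Rnf43 from Znrf3, -6.46, was -6.88, -5.38 and -4.48 in the same order. These follow from the pseudocount, since Lef1 and Rnf43 had under 5 reads in a library. Axin2 against Axin1 and Tcf7l1 against Tcf7l2 kept direction and call under every alternative run.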

Other observations

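Genes of the planar polarity branch, which uses Frizzled receptors without beta-catenin, formed 1 role of the wider pathway list. Of 8 genes in the list, 7 averaged at least 10 and 5 above 100. The atypical cadherin genes Celsr2 and Celsr1 stood at 2451 ± 278 and 1568 ± 104 in normalized count, the core membrane protein gene Vangl2 at 1459.6 ± 60.7 and its paralog Vangl1 at 409 ± 23.2. Prickle2 stood at 488 ± 24.5. Prickle1 (50.1 ± 2.83) and Celsr3 (41.2 ± 13.5), which is known from neurons, had means under 100, and Prickle3 was at 7.42 ± 3.02. The reads of 3 of the 7 tested, Celsr1, Celsr2 and Celsr3, differed between libraries by more than sampling, or 42.9% against 55.4% of all genes (chi-square, adjusted p = 0.00236, 1.46e-16 and 0.000992).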
